A study of Homo sapiens with 4 samples.

Results

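The 10 genes described here code for 8 secreted cytokines and 2 receptor chains, and were measured after knockdown of hnRNPM, a splicing regulator, in LM2 breast cancer cells. They were taken by name from a table of 36525 genes, and each of the 10 was found there by its Ensembl identifier. The ligands are the colony-stimulating factors CSF1 (ENSG00000184371), CSF2 (ENSG00000164400) and CSF3 (ENSG00000108342), the interleukin-1 ligands IL1A (ENSG00000115008) and IL1B (ENSG00000125538), IL6 (ENSG00000136244) and IL11 (ENSG00000095752), which signal through gp130, and IL24 (ENSG00000162892) of the IL-20 subfamily. The receptor chains are IL6ST (ENSG00000134352), which codes for gp130, and IL1RAP (ENSG00000196083), the accessory chain of the IL-1 receptor.

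RNA was sequenced from 2 libraries of LM2 cells with hnRNPM knocked down and from 2 libraries of control LM2 cells. LM2 is a clonal, lung-metastatic derivative of MDA-MB-231, a mesenchymal human breast cancer line. All cells were grown in serum-containing medium and collected 48 h after plating. For the silencing agent the labels name an shRNA in one place and an siRNA in another, without its sequence. Each group is thus 1 line under 1 treatment, and nothing in the labels says that its libraries came from separate cultures, so p-values measure only the spread between these libraries, which may be technical.

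Values are RPKM, read numbers divided by the length of the transcript and by a total of reads, and can be compared between genes because they are per length. The read total worked out from low values was 29.7 M for both knockdown and 41.9 M for both control libraries, so the values are not scaled to each library's own depth. Estimated reads per library were 16.5 M and 18.3 M in the knockdown and 23.0 M and 26.6 M in the control group. The target HNRNPM was at 11.5 and 12.95 RPKM in knockdown cells, against 88.6 and 102 RPKM in control cells. The labelled line was checked with markers known for MDA-MB-231. VIM, CD44, AXL, MSN, CAV1, EGFR and FN1 were at 15.0 RPKM or more in all 4 libraries, PGR was listed at 0 in all 4, and ESR1 and FOXA1 stayed at or below 0.0322 RPKM. Of other genes known to be low in this line, ERBB2 was at 7.19 to 9.13 RPKM, and CDH1 was at 0.717 and 0.990 RPKM in knockdown cells, against 0.0774 and 0.0629 RPKM in control cells. GATA3, also listed as low or absent in this line, was not that low and averaged 1 RPKM or more over the 4 libraries.

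Cytokines of these families carry signals between tumour cells, stroma and blood-forming cells. CSF1 drives macrophages, CSF2 macrophages and granulocytes, and CSF3 neutrophils. IL-1α and IL-1β bind the same receptor, which needs the accessory chain made by IL1RAP to signal. IL-6 and IL-11 each bind a receptor of their own that then pairs with gp130 and activates JAK kinases and STAT3, and in breast cancer models IL-11 is known as a TGF-β-induced cytokine linked to bone metastasis. Many cytokine transcripts are short-lived and carry AU-rich elements in their 3′ ends.

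After knockdown the cytokine genes did not move as a block. CSF3, IL11 and IL1B fell, by 16.1-fold, 6.28-fold and 4.23-fold. CSF1 and IL6ST rose, by 2.21-fold and 2.01-fold. CSF2, IL6, IL24 and IL1RAP did not pass the test, and IL1A was too low to be tested. The test was limma on log2(RPKM + 0.5) on the 13627 genes that averaged 1 RPKM or more, with Benjamini-Hochberg adjustment over all of them and a threshold of 0.05. Of the 9 genes tested, 2 were higher and 3 lower, where 14.7% of all tested genes were called higher and 21.8% lower. Of all calls 40.3% were higher, and 50.4% once the libraries had been rescaled by median ratios. The median log2 fold change of the 9 was -0.04, against -0.07 for all genes tested. In 7 of the 9 the 2 knockdown libraries lay wholly above or wholly below the 2 control libraries, which was also so for 66.8% of all genes tested. An exact permutation test of 2 against 2 libraries gives at best a p of 0.33 (two-sided) and was not used. limma shares information on the spread over all genes, and the standard errors of the 9 genes lay between 0.17 and 0.19. The p-values thus rest on a spread common to many genes, and hardly on each gene's own. That spread includes differences in overall level between libraries of a group, for which the values are not scaled. Median-ratio factors were 0.926 and 1.03 in the knockdown and 0.959 and 1.1 in the control libraries. Without the variance trend the same 5 of the 9 were called, with an adjusted p of 1.89e-74 for CSF3 and 8.78e-06 for IL6ST. The size of these p-values depended strongly on the setting. For CSF3 the limma adjusted p was 0.000146 with median-ratio scaling, 0.00355 with the replicate number as a block and 0.0445 without the filter. For IL6ST it was 0.000361, 0.00355 and 0.0527 in the same settings.

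**Figure D1:**
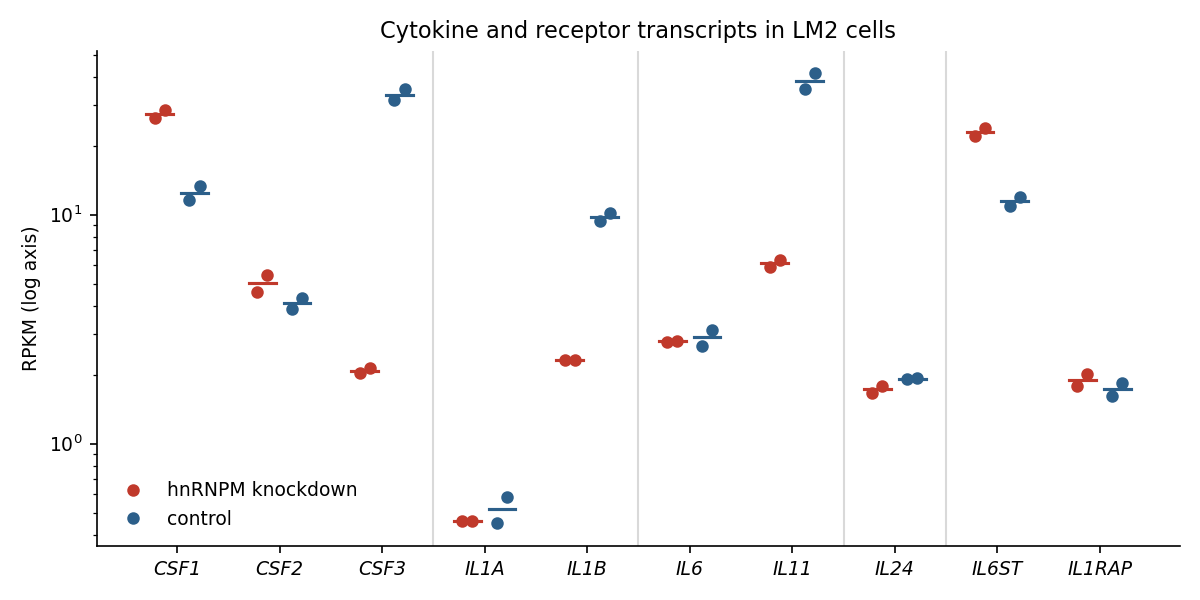
RPKM on a log axis for the 10 genes in each library, with 2 knockdown libraries (red, left of each pair) and 2 control libraries (blue), where points are libraries and lines are group means. CSF3 lay at 2.03 and 2.13 RPKM in knockdown cells against 31.5 and 35.3 RPKM in control cells, whereas IL6 lay at 2.79 and 2.81 against 2.68 and 3.14 RPKM.

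The colony-stimulating factors moved apart from one another. CSF3 was at 2.03 and 2.13 RPKM in the knockdown libraries, against 31.5 and 35.3 RPKM in the control libraries. Both knockdown libraries were low and both control libraries high, with no overlap. The means were 2.08 ± 0.0748 RPKM in knockdown and 33.4 ± 2.67 RPKM in control cells (SD, n = 2 each), and the log2 fold change of -3.72 ± 0.18 (SE; limma, adjusted p = 9.3e-95) ranked CSF3 as number 1 from the bottom among the 13627 genes tested. In reads this was an estimated 134 and 140 in knockdown libraries, against 2934 and 3286 in control libraries.

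CSF1 was at 26.3 and 28.8 RPKM in knockdown cells, against 11.6 and 13.3 RPKM in control cells. Again the groups did not overlap, but here the knockdown libraries were the high ones. The means were 27.5 ± 1.75 and 12.5 ± 1.21 RPKM in knockdown and control cells (SD, n = 2 each), with a log2 fold change of 1.11 ± 0.17 (SE; limma, adjusted p = 3.73e-09), number 323 from the top. Without the filter on low genes the same CSF1 difference had a limma adjusted p of 0.0527, a fit in which the value of HNRNPM itself was 0.0445.

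CSF2, which codes for GM-CSF, was at 4.61 and 5.47 RPKM in knockdown cells, against 3.87 and 4.33 RPKM in control cells. The knockdown libraries were above the control libraries by a narrow margin. The log2 fold change was 0.27 ± 0.18 (SE; 95% interval -0.08 to 0.61) and did not pass (limma, adjusted p = 0.239). CSF2 did pass once the libraries had been rescaled by median ratios, which removes differences in overall level between them (log2 fold change 0.33, limma adjusted p = 0.00872).

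Shares within a library do not depend on its overall level and were formed as well. Of the summed RPKM of the 3 colony-stimulating factors, CSF3 made up 6.16% and 5.87% in the knockdown libraries, against 67.1% and 66.7% in the control libraries. CSF1 made up 79.8% and 79.1% in knockdown cells, against 24.7% and 25.1% in control cells. CSF2 took 14.0% and 15.0% in knockdown cells, against 8.23% and 8.17% in control cells. The leading colony-stimulating factor transcript was thus CSF1 in both knockdown libraries and CSF3 in both control libraries. The summed level of the 3 genes was 32.9 and 36.4 RPKM in knockdown cells, against 47.0 and 53.0 RPKM in control cells.

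CSF1R, CSF3R and CSF2RA, receptor chains for these factors, were below 1 RPKM in every library. CSF1R was at 0.0782 and 0.0913 RPKM in knockdown cells, against 0.125 and 0.148 RPKM in control cells. CSF3R was listed at 0 in both control libraries and did not exceed 0.0080 RPKM in knockdown libraries. CSF2RA, the ligand-binding chain of the GM-CSF receptor, was at 0.467 and 0.820 RPKM in knockdown cells, against 0.312 and 0.449 RPKM in control cells. All 3 were below the filter and were not tested. CSF2RB, also on the list of receptor chains, lies on chromosome 22, of which the table holds 0 genes, so its level is unknown.

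**Figure D2:**
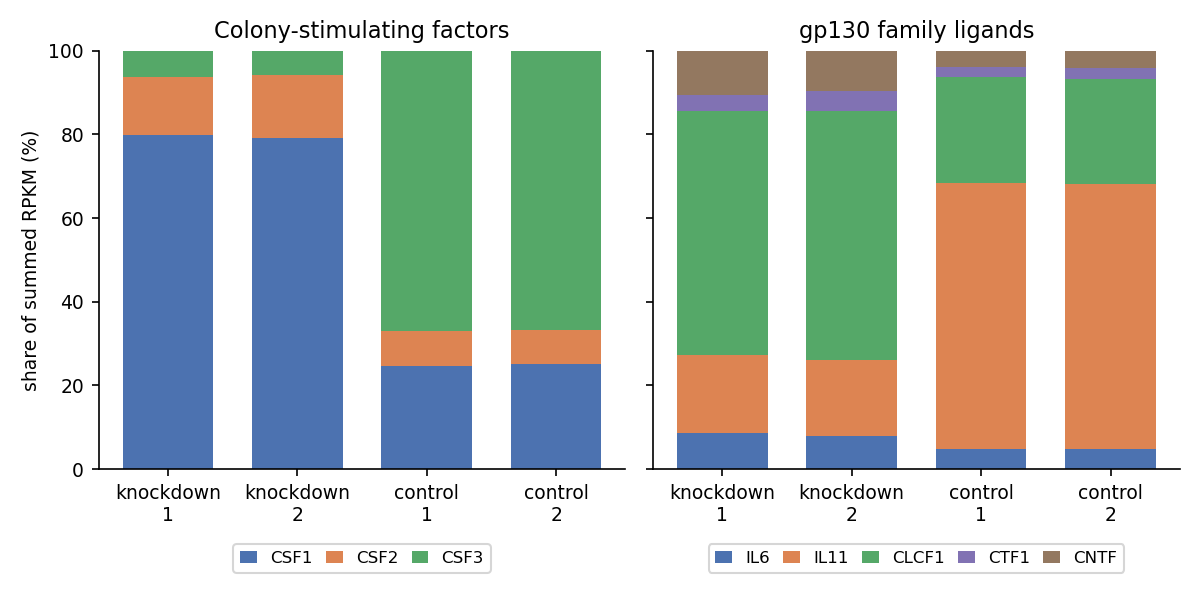
Share of summed RPKM, in percent, taken by each of 3 colony-stimulating factors (left) and by each of 5 ligands of the gp130 family (right) in the 2 knockdown and 2 control libraries. CSF3 takes 6.16% and 5.87% of the first sum in knockdown against 67.1% and 66.7% in control libraries, and IL11 takes 18.6% and 18.1% of the second against 63.7% and 63.4%.

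The interleukin-1 ligands lie next to each other on chromosome 2, and only IL1B was high enough to be tested. IL1B, whose product is secreted after cleavage by caspase-1, was at 2.31 and 2.32 RPKM in knockdown cells, against 9.41 and 10.2 RPKM in control cells. Both knockdown libraries were low, and they stood at 212 and 213 estimated reads, against 1221 and 1321 reads in the control libraries. The means were 2.31 ± 0.0077 and 9.80 ± 0.545 RPKM in knockdown and control cells (SD, n = 2 each), and the difference in log2 was -1.87 ± 0.18 (SE; limma, adjusted p = 2.55e-24).

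IL1A, whose product also acts as a cell-bound alarm signal, was at 0.460 RPKM in both knockdown libraries, against 0.450 and 0.584 RPKM in control cells. These levels correspond to 29 reads in each knockdown library and to 40 and 52 reads in the control libraries, and the groups overlapped in RPKM. With no filter on low genes the difference in log2 was -0.08 ± 0.11 (SE; limma, adjusted p = 0.666). The ratio of IL1A to IL1B within a library was 0.199 and 0.198 in knockdown cells, against 0.0478 and 0.0574 in control cells. That ratio was higher in both knockdown libraries, by 1.93 on the log2 scale.

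IL1RAP was at 1.79 and 2.02 RPKM in knockdown cells, against 1.62 and 1.84 RPKM in control cells. The groups overlapped, and the log2 fold change of 0.11 ± 0.19 (SE; 95% interval -0.26 to 0.48) did not pass (limma, adjusted p = 0.695). IL1R1, the ligand-binding chain that pairs with it, was at 1.14 and 1.44 RPKM in knockdown cells, against 0.661 and 0.681 RPKM in control cells. It lay just below the filter, and without the filter its log2 fold change was 0.61 (limma, adjusted p = 0.105). The natural antagonist IL1RN and the decoy receptor IL1R2 did not exceed 0.0219 RPKM in any library. Within a library IL1B stood at 1.29 and 1.15 times the level of IL1RAP in knockdown cells, against 5.81 and 5.53 times in control cells.

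Behind the receptor, 29 of 32 listed names of IL-1 signalling and processing genes were found in the table, and the test covered 21. ST2, not found under that name, is IL1RL1, which did not exceed 0.0042 RPKM in any library. Of the 21 tested, 2 rose and 5 fell, 14 did not pass, and the median log2 fold change was -0.18, with -0.32 without control replicate 1 and -0.051 without control replicate 2. Over all tested genes, 14.7% were called higher and 21.8% lower. IRAK4, a kinase recruited to the activated receptor, fell to 1.12 and 1.58 RPKM in knockdown cells, against 3.05 and 3.23 RPKM in control cells (log2 fold change -0.99; limma, adjusted p = 1.3e-06). NLRP3, the inflammasome sensor upstream of caspase-1, fell to 0.914 and 0.971 RPKM in knockdown cells, against 2.14 and 2.49 RPKM in control cells (-0.96; limma, adjusted p = 6.61e-06). IRAK1 (-0.65) and the pore-forming protein GSDMD (-0.59) also fell, and TOLLIP (0.66), an inhibitor of IRAK1, and IRAK2 (0.52) rose. IRAK4 and NLRP3 passed in all 4 fits that left out 1 library. The other 5, IL18BP among them, each failed in 3 or more of those fits, with adjusted p up to 0.496. With median-ratio scaling 8 rose and 8 fell. Caspase-1 itself (CASP1) was at 0.163 and 0.181 RPKM in knockdown cells, against 0.289 and 0.263 RPKM in control cells, below the filter.

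IL6 and IL11 use the same signalling chain, and their transcripts differed in what followed the knockdown. IL11 was at 5.92 and 6.33 RPKM in knockdown cells, against 35.5 and 41.4 RPKM in control cells. Both knockdown libraries were low, with no overlap. The means were 6.12 ± 0.294 and 38.4 ± 4.22 RPKM in knockdown and control cells (SD, n = 2 each), with a log2 fold change of -2.55 ± 0.18 (SE; limma, adjusted p = 5.17e-45), number 7 from the bottom of all genes tested.

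IL6 was at 2.79 and 2.81 RPKM in knockdown cells, against 2.68 and 3.14 RPKM in control cells. The knockdown values lay between the control values. The log2 fold change was -0.04 ± 0.18 (SE; 95% interval -0.40 to 0.31; limma, adjusted p = 0.875), and it was 0.02 after median-ratio scaling. IL6 shares 428 exon bases with IL6-AS1 on the opposite strand, which was at 1.16 and 1.61 RPKM in knockdown cells, against 1.28 and 1.51 RPKM in control cells. Whether strand was used in counting is not stated, so reads of the pair may not be separable. Within a library IL11 stood at 2.12 and 2.25 times the level of IL6 in knockdown cells, against 13.2 times in each control library. The log2 ratio of IL11 to IL6 differed by -2.59 between the groups, with an SD of 0.06 among knockdown and of 0.00539 among control libraries.

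IL6ST was at 22.002 and 24.0 RPKM in knockdown cells, against 10.9 and 12.0 RPKM in control cells. The groups did not overlap, with the knockdown libraries high. The means were 23.0 ± 1.41 and 11.4 ± 0.809 RPKM in knockdown and control cells (SD, n = 2 each), and the difference in log2 was 0.98 ± 0.18 (SE; limma, adjusted p = 3.1e-07, and 0.0527 without the filter on low genes). In knockdown libraries IL11 was at 0.269 and 0.264 times the level of IL6ST, against 3.27 and 3.45 times in control libraries. Soluble forms of gp130 arise from the same gene and cannot be told apart in values per gene.

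Chains that pair with gp130 were then compared. IL6R, the IL-6 binding chain, rose to 3.76 and 3.96 RPKM in knockdown cells, against 0.651 and 0.730 RPKM in control cells, a 5.59-fold difference (log2 fold change 1.87 ± 0.19, SE; limma, adjusted p = 5.51e-21). OSMR, the oncostatin M receptor chain, rose to 23.2 and 25.4 RPKM in knockdown cells, against 9.34 and 10.6 RPKM in control cells (2.43-fold; limma, adjusted p = 3.45e-11). LIFR, the leukaemia inhibitory factor receptor chain, was at 3.54 and 3.87 RPKM in knockdown cells, against 2.14 and 2.501 RPKM in control cells (1.60-fold; limma, adjusted p = 0.00534), but it failed in 3 of the 4 fits that left out 1 library, with adjusted p up to 0.178.

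IL11RA, the chain that binds IL-11, and IL27RA, the chain that binds IL-27, did not share this direction. IL11RA was at 0.672 and 0.806 RPKM in knockdown cells, against 0.996 and 1.197 RPKM in control cells, so the groups did not overlap and the knockdown libraries were low. IL11RA lay below the filter, and without the filter its log2 fold change was -0.37 (limma, adjusted p = 0.214). IL27RA fell to 3.43 and 3.68 RPKM in knockdown cells, against 5.68 and 6.42 RPKM in control cells. Its log2 fold change was -0.69 (limma, adjusted p = 0.00052, and 0.066 without the filter).

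**Figure D3:**
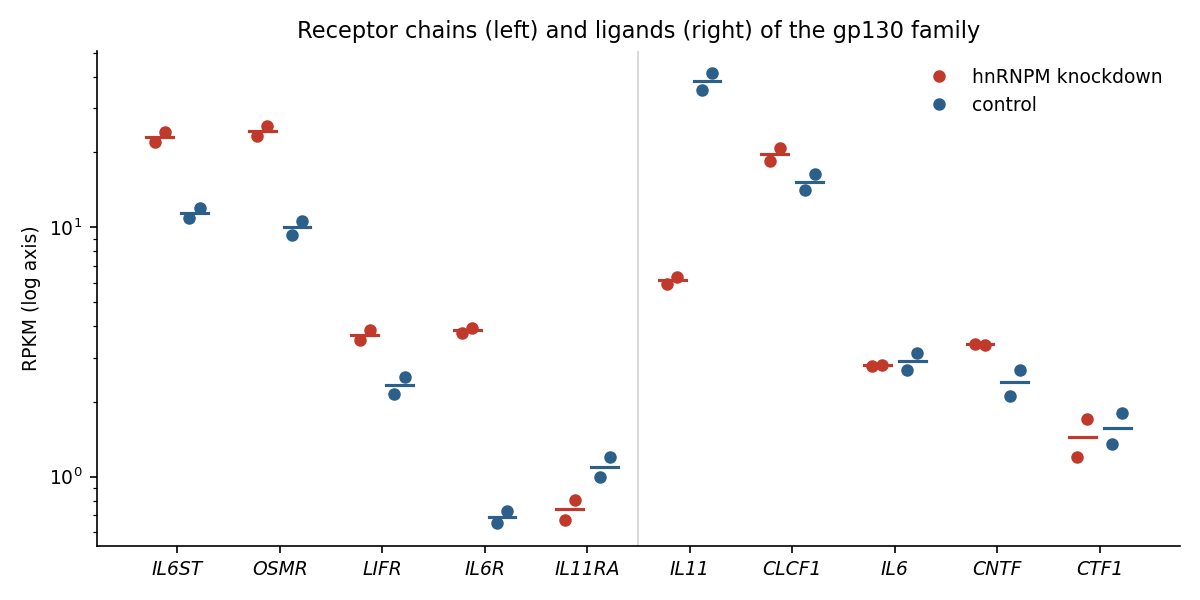
RPKM on a log axis for 5 receptor chains (left of the line) and 5 ligands (right of it) of the gp130 family, with 2 knockdown libraries (red, left of each pair) and 2 control libraries (blue), lines being group means. IL6ST, OSMR, LIFR and IL6R lie higher in knockdown libraries, and IL11 lies lower, at 5.92 and 6.33 RPKM against 35.5 and 41.4 RPKM. IL27RA, which also pairs with gp130 and was lower, is not drawn.

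Among the ligands of this family that were tested, CLCF1, a cardiotrophin-like cytokine, was at 18.5 and 20.8 RPKM in knockdown cells, against 14.1 and 16.3 RPKM in control cells (limma, adjusted p = 0.0925; rescaled by median ratios, 0.000736). IL11 took 18.6% and 18.1% of the summed RPKM of IL6, IL11, CLCF1, CTF1 and CNTF in knockdown libraries, against 63.7% and 63.4% in control libraries. CLCF1 took 58.2% and 59.4% in knockdown libraries, against 25.3% and 24.9% in control libraries. The most abundant of these 5 transcripts was therefore CLCF1 in knockdown and IL11 in control libraries. LIF and OSM, also ligands of this family, lie on chromosome 22, of which the table holds 0 genes. Their levels are therefore unknown, and the shares leave them out.

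Of 40 listed genes of gp130 and JAK-STAT signalling, 36 were in the table and the test covered 28, with 10 that rose, 4 that fell and 14 that did not pass (median log2 fold change 0.11, from 0.0144 without control replicate 1 to 0.20 without control replicate 2, and -0.00417 without a filter; 14 and 7 with median-ratio scaling). The shares over all tested genes were 14.7% higher and 21.8% lower. ADAM17, a sheddase that can release the IL-6 receptor from the cell surface, rose to 12.99 and 14.9 RPKM in knockdown cells, against 5.37 and 5.96 RPKM in control cells (2.47-fold; limma, adjusted p = 6.35e-11). The cytokine signalling suppressors SOCS5 (log2 fold change 0.89) and SOCS6 (0.92) rose, and STAT6 (-0.78) fell. IL6R, OSMR, ADAM17, SOCS5 and SOCS6 passed in all 4 fits that left out 1 library, and STAT6 in 2 of them. STAT3, the main transcription factor below gp130, was at 18.5 and 21.3 RPKM in knockdown cells, against 22.2 and 24.3 RPKM in control cells (limma, adjusted p = 0.338; rescaled by median ratios, 0.0354 with a log2 fold change of -0.14). Its feedback target SOCS3 was at 21.2 and 22.4 RPKM in knockdown cells, against 18.3 and 21.6 RPKM in control cells (limma, adjusted p = 0.595; rescaled by median ratios, 0.0115 with a log2 fold change of 0.21).

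IL24, a cytokine with known growth-suppressing activity in tumour cells, was at 1.67 and 1.79 RPKM in knockdown cells, against 1.91 and 1.94 RPKM in control cells. The knockdown libraries were slightly below the control libraries, at 98 and 105 reads against 158 and 161 reads in the deeper control libraries. The log2 fold change was -0.12 ± 0.19 (SE; 95% interval -0.49 to 0.25) and did not pass (limma, adjusted p = 0.654). Of its receptor chains, IL20RA did not exceed 0.128 RPKM and IL22RA1 did not exceed 0.0768 RPKM in any library. IL20RB was at 1.54 and 2.52 RPKM in knockdown cells, against 1.35 and 1.58 RPKM in control cells, and did not pass (limma, adjusted p = 0.155).

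**Figure D4:**
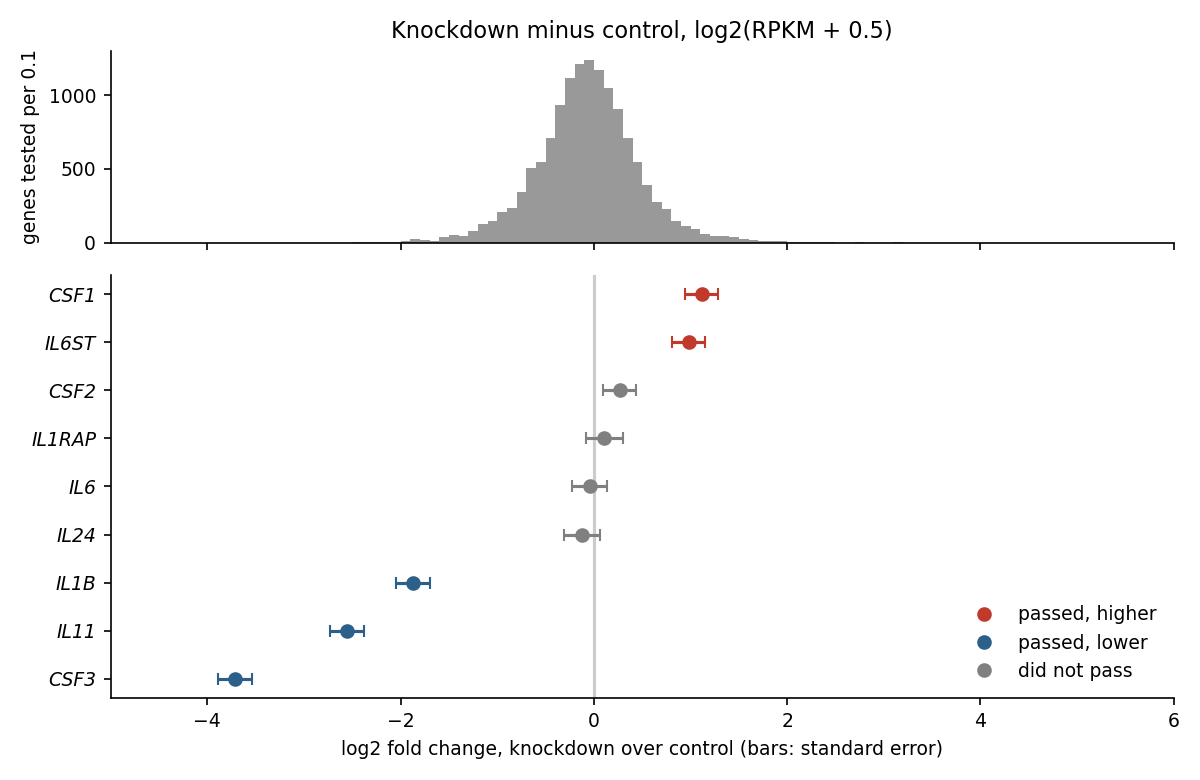
Number of genes tested per 0.1 of log2 fold change (top) and log2 fold change with its standard error for the 9 cytokine and receptor genes tested (bottom), knockdown over control on the log2(RPKM + 0.5) scale. CSF1 (1.11) and IL6ST (0.98) lie to the right, IL1B (-1.87), IL11 (-2.55) and CSF3 (-3.72) to the left, and the other 4 between -0.12 and 0.27.

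Most other cytokines of these families lay below the filter. Of 47 further colony-stimulating factor and interleukin ligands listed, the table held 36 and the test covered 8, of which 3 rose, 1 fell and 4 did not pass (median log2 fold change 0.33, from 0.22 without control replicate 1 to 0.45 without control replicate 2, and 0.03 without a filter). Among all tested genes 14.7% were called higher and 21.8% lower. EBI3, a subunit of IL-27 and IL-35, rose to 3.47 and 4.27 RPKM in knockdown cells, against 1.38 and 1.74 RPKM in control cells (limma, adjusted p = 4.04e-08). KITLG, the stem cell factor, rose to 2.27 and 2.38 RPKM in knockdown cells, against 0.889 and 1.05 RPKM in control cells (limma, adjusted p = 1.04e-05). FLT3LG, a dendritic cell growth factor, fell to 2.13 and 2.23 RPKM in knockdown cells, against 4.88 and 6.13 RPKM in control cells (limma, adjusted p = 1.58e-09). CNTF also passed (log2 fold change 0.43), but in none of the 4 fits without 1 library, with adjusted p up to 0.307.

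Of 47 listed receptor chains 39 were in the table and 13 were tested, with 4 that rose, 5 that fell and 4 that did not pass (median log2 fold change -0.13, from -0.22 without knockdown replicate 2 to -0.045 without knockdown replicate 1). For all tested genes the shares were 14.7% higher and 21.8% lower. Besides IL6R, OSMR and LIFR, the IL-7 and TSLP receptor chain IL7R rose to 23.0 and 26.1 RPKM in knockdown cells, against 4.18 and 5.12 RPKM in control cells (5.28-fold; limma, adjusted p = 4.28e-36). IL17RD, IL27RA, IL15RA, IL13RA2 and IL17RC fell, with log2 fold changes from -0.85 to -0.58. Only IL17RD of these 5 passed in all 4 fits that left out 1 library, and the other 4 reached adjusted p up to 0.278.

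Transcription factors known to act on cytokine genes, listed together with inhibitors and kinases of the NF-κB pathway, went both ways. Of the 40 genes listed, 34 were in the table. Among the 27 that could be tested, 7 were higher and 9 lower, and 11 did not pass (median log2 fold change -0.18, with -0.30 and -0.08 without control replicate 1 and 2, and -0.10 and -0.27 without knockdown replicate 1 and 2). Across all tested genes 14.7% were called higher and 21.8% lower. The AP-1 subunit JUN fell to 18.8 and 21.2 RPKM in knockdown cells, against 40.7 and 47.8 RPKM in control cells (limma, adjusted p = 2.09e-09). NFATC3 (log2 fold change -1.01), CEBPG (-0.83) and NFKB1 (-0.78) also fell, and ATF3 (1.01) and the NF-κB inhibitor NFKBIA (0.86) rose. CEBPG and NFKB1 each failed in 1 of the 4 fits that left out 1 library, both without knockdown replicate 1, at adjusted p = 0.07 and 0.091. Of 32 tested factors of AU-rich element binding and cytokine mRNA decay, 3 rose, 5 fell and 24 did not pass, beside the same shares of all tested genes (median of the 32 factors -0.08; 11 and 10 with median-ratio scaling). That median changed sign with the libraries used, at 0.0148 without control replicate 2, 0.0048 without knockdown replicate 1, and -0.16 and -0.17 without control replicate 1 and knockdown replicate 2. ZFP36L1, which promotes decay of AU-rich transcripts, fell 1.85-fold, the p38 target kinase MAPKAPK2 fell 1.78-fold, and CELF1 rose 1.70-fold, but none of the 8 called genes, among them DAZAP1, RC3H1 and HNRNPD, passed in all 4 fits that left out 1 library. ZFP36, the best known decay factor of cytokine transcripts, was at 5.58 and 5.39 RPKM in knockdown cells, against 6.03 and 7.63 RPKM in control cells (limma, adjusted p = 0.201).

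The 3′ untranslated regions (UTRs) were read for the AU-rich pentamer ATTTA. Over 9069 tested genes with such a region in GENCODE 29, the median was 1.64 pentamers per kilobase. The shortest region, that of CSF2 with 318 bases, held 8 pentamers, or 25.2 per kilobase, a density that 0.11% of those genes reached. IL6 had 14.0, IL1B 9.84, CSF3 8.20, IL24 7.13, IL11 5.56, IL1A 4.34, IL6ST 3.84, CSF1 1.86 and IL1RAP 1.27 pentamers per kilobase. The ligands were all above the median, but CSF1, which rose, only narrowly, with 46.4% of those genes as dense. For CSF3, IL1B and IL11, which fell, that share was 2.58%, 1.54% and 8.03%. For IL6 and IL24, which did not pass, it was 0.562% and 3.76%, and for the untested IL1A 14.2%. A link between density and direction was not tested. The densest 30 bases of 5 ligands are shown on GRCh38, with the pentamers in capitals, for 3 genes that fell (CSF3, IL11 and IL1B), for CSF2, which did not pass, and for CSF1, which rose.
CSF3, chr17:40016975-40017004, plus strand: tcccatgtATTTAtctctATTTAatATTTA
IL11, chr19:55365951-55365980, minus strand: ttccaaagccagatcttATTTATTTATTTA
IL1B, chr2:112830003-112830032, minus strand: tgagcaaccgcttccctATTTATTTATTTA
CSF2, chr5:132076072-132076101, plus strand: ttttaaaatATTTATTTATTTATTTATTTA
CSF1, chr1:109930911-109930940, plus strand: tttatataaagtcATTTAaatatctATTTA

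In IL11, IL1B and CSF2 the pentamers overlap end to end, and in CSF3 and CSF1 they stand apart. This overlapping run was present in IL11 and IL1B, which fell, and in CSF2, which did not pass. Its part in the changes was not tested.

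Promoter sequence from RefSeq on GRCh38.p14, 250 bases before to 50 after the start site, was matched for 8 of the 10 genes. It was searched on both strands for TGANTCA (AP-1), TTNNGNAA (C/EBP), TTCNNNGAA (STAT), GGGCGG (GC box), TATAAA and the 10-letter NF-κB consensus. Overlaps between motifs were allowed. CSF1 and CSF3 had no promoter sequence to search. Of 35116 promoters of this length, 7.71% hold the AP-1 letters, 36.8% the C/EBP letters, 7.66% the STAT letters, 45.0% the GC box, 11.5% TATAAA and 11.3% the NF-κB consensus. Those of the gp130 system and of IL1B are shown, with each match in capitals, since these genes share a pathway or a direction and differ in their promoters.
IL11, chr19:55370414-55370713, minus strand: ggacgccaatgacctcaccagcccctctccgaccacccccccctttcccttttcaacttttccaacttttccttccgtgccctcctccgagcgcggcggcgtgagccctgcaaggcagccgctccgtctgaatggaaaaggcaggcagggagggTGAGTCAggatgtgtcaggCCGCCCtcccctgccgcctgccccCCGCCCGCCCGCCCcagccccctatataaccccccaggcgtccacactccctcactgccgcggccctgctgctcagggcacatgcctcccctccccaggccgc
IL6, chr7:22726950-22727249, plus strand: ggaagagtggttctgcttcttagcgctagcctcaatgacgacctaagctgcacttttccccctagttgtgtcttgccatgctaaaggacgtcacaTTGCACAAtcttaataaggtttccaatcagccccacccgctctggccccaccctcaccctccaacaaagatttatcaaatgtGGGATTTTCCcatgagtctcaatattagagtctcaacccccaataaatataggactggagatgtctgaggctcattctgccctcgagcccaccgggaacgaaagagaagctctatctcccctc
IL6ST, chr5:55994914-55995213, minus strand: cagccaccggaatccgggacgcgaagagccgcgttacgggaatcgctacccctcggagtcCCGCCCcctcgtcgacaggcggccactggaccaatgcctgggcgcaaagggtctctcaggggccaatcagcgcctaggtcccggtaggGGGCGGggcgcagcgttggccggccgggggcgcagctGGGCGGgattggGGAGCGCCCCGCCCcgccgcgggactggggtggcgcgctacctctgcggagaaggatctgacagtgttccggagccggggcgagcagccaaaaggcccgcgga
IL1B, chr2:112836730-112837029, minus strand: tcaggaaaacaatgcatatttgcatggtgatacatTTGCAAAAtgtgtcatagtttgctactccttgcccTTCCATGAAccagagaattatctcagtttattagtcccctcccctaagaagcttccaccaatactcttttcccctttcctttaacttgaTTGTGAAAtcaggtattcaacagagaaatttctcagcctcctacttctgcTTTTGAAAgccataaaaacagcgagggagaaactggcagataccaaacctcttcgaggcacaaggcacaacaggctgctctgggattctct

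The IL11 window holds 1 AP-1 match, which begins 96 bases before the start site, and 4 GC boxes, of which the 3 nearest the start overlap. The IL6 window holds an NF-κB match 73 bases and a C/EBP match 155 bases before the start. The IL6ST window, with 72.7% G and C against a median of 58.7% over all promoters, holds 4 GC boxes and an NF-κB match on the reverse strand that shares bases with one of them. The IL1B window has 42.3% G and C, with 3 C/EBP matches and 1 STAT match. Among the windows not shown, a window of IL1A held AP-1 matches at -12 and 39 from its start site, with C/EBP and TATAAA matches. CSF2 held a STAT match, IL24 a C/EBP match and IL1RAP GC boxes. These are matches of letters and not measured binding sites.

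The nearest protein-coding genes in the table were read on either side of the cytokine and receptor genes. CSF3 lies between PSMD3, at 20.5 and 22.3 RPKM in knockdown cells against 29.8 and 34.4 RPKM in control cells (log2 fold change -0.57), and MED24, which did not pass (-0.14). PSMD3 passed (limma, adjusted p = 0.0044) but in none of the 4 fits that left out 1 library, with adjusted p up to 0.31. The neighbours of IL11, GARIN5B and TMEM190, did not exceed 0.483 RPKM in any library. IL1B lies between IL1A and IL37, and IL37 did not exceed 0.114 RPKM. Next to CSF1, EPS8L3 was listed at 0 throughout and AHCYL1 was lower, with a log2 fold change of -0.68 (limma, adjusted p = 0.000556), although it passed in 1 of the 4 fits that left out 1 library. Next to IL6ST, IL31RA did not pass (-0.13), and ANKRD55, below the filter, was at 0.204 and 0.181 RPKM in knockdown cells, against 0.0401 and 0.0561 RPKM in control cells. Beside CSF2, IL3 was listed at 0 in 3 of 4 libraries and P4HA2 was higher (0.45; limma, adjusted p = 0.0345). Beside IL24, IL20 was listed at 0 in 3 of 4 libraries and FCMR was lower (-0.45; limma, adjusted p = 0.0395). P4HA2 and FCMR passed in none of the 4 fits that left out 1 library, with adjusted p up to 0.352 and 0.514. Next to IL6, TOMM7 did not pass (-0.19), and next to IL1A, CKAP2L did not pass (-0.31). The neighbours of IL1RAP, CLDN16 and GMNC, did not exceed 0.0376 RPKM.

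The genes whose 4 values were most like each changed gene were found by the distance between log2 values centred on each gene's mean, over 4 libraries. CSF3 was closest to MMP1 (distance 0.134), at 1.39 and 1.23 RPKM in knockdown cells against 21.3 and 24.4 RPKM in control cells, and then to TGFBR2 (0.638). IL11 was closest to PTPRN2 (0.115) and ANP32E (0.124), and IL1B to SH3PXD2B (0.0283) and HOXB9 (0.0865). CSF1 was closest to SHROOM3 (0.0154) and EREG (0.0168), and IL6ST to PLCD3 (0.0166) and NPEPPS (0.0219). With 4 libraries in 2 groups, the distance reflects mainly the size of the difference between groups.

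Blood and stromal cells are known sources of these cytokines, so their markers were read. Of 20 leukocyte markers, 15 were in the table, and their summed level was 13.3 to 16.4 RPKM in knockdown and 27.6 to 30.9 RPKM in control libraries. Nearly all of it came from CD14 (5.27 and 7.13 RPKM in knockdown cells against 1.28 and 1.44 RPKM in control cells) and CD68 (7.69 and 8.75 against 26.1 and 29.1 RPKM). The defining leukocyte gene PTPRC did not exceed 0.0158 RPKM, and all 13 markers besides CD14 and CD68 stayed at or below 0.241 RPKM. Of 11 fibroblast and endothelial markers, 10 were in the table, with a summed level of 3.12 to 3.36 RPKM in knockdown and 0.729 to 0.812 RPKM in control libraries, mostly PDGFRB and LUM. The part of these markers in the cytokine results was not tested. DCN and FAP, on the same list as PDGFRB and LUM, did not exceed 0.053 RPKM in any library. In whole cultures, fewer cells that express a gene and less RNA of it per cell cannot be told apart.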

How the data were processed

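RNA was sequenced from 2 knockdown and 2 control libraries of LM2 cells. The authors deposited 1 table of RPKM values per gene and library. The submitters' processing notes name Bowtie 0.12.7 and hg19. How reads were counted, and whether by strand, is not stated. There were 0 other columns of per-sample values. Names came from a current symbol table (32172 genes) and GENCODE 29 (136 genes), and 4217 genes had none. The table holds 0 genes of chromosomes 20, 21 and 22, which were not analysed here. Listed genes that lie there, such as LIF, OSM, CSF2RB and CEBPB, thus have no values.

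Steps among low values, with GENCODE 29 exon lengths, gave 82.8% of 37220 values as whole reads within 0.1 read, at totals of 29.7 M for both knockdown and 41.9 M for both control libraries. Each group thus appears to have 1 common scale for both libraries; estimated reads are given for depth only, and no count test was run. Libraries of a group differed slightly beyond counting error (mean chi-square per gene 1.32 and 1.33, where counting error gives about 1), and were kept as 2 samples.

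Genes averaging 1 RPKM or more were tested with limma 3.58.1 in R 4.3.3 as log2(RPKM + 0.5), on group alone, with a variance trend and Benjamini-Hochberg adjustment over all 13627 genes; this scale understates changes of low genes. The procedure was tested on simulated data. Each fit that left out 1 library kept only 1 library in that group, so failing there may reflect the smaller number of libraries. The 10 genes, the gene lists and the rule for named genes (the 10 members, up to 6 called genes with the smallest p per list, fixed receptor chains, nearest neighbours and most similar genes) were chosen with earlier results of these data known. Shares within gene families, and LIFR, IL13RA2, IL17RC, IL18BP, CLCF1, STAT3, SOCS3, CASP1, ZFP36, IL1RN, IL1R2, IL1RL1 and IL22RA1, were chosen after their values were seen. IL6, IL6ST and IL1RAP share exon bases with other annotated genes.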

Additional observations from a re-analysis of the deposited data

How the results depend on the processing

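CSF3, IL11 and IL1B kept their direction and stayed past the threshold in all 12 alternatives run, with log2 fold changes of -3.94 to -3.48, -2.66 to -2.44 and -2.03 to -1.70. CSF1 (1.02 to 1.21) and IL6ST (0.91 to 1.05) kept theirs in all but the fit without a filter, where log2 fold changes of 1.11 and 0.98 had limma adjusted p = 0.0527 and 0 of the 10 genes were called higher. CSF2 passed with median-ratio scaling (0.33), with the replicate number as a block (0.27, adjusted p = 0.0343) and with both (0.33, adjusted p = 0.0288). IL6, never called, was at 0.0217 with median-ratio scaling, with or without the replicate block, and at -0.14 to 0.0542 when 1 library was left out, 0.0542 being the value without control replicate 2. IL1A ranged from -0.175 to 0.0163 when 1 library was left out.

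Over all genes, 2000 were higher and 2964 lower (40.3% of calls higher), against 4192 and 4122 with median-ratio scaling (50.4% higher), with a median log2 fold change of -0.000765, against -0.07 as deposited. Without a filter there were 262 and 255, with 5 RPKM as the minimum mean 1047 and 1321, with the replicate block 3109 were higher and 4318 lower, and with block and scaling 3856 and 3738. Leaving out 1 library gave 759 to 1158 higher and 1057 to 2007 lower. The lowest higher count came without knockdown replicate 2 and the lowest lower count without control replicate 2; control replicate 1 gave 807 and 2007 when omitted, knockdown replicate 1 gave 1029 and 1130. Over the pathway lists together, 26 genes were higher and 29 lower, against 3 and 0 without a filter, 13 and 16 with 5 RPKM as the minimum mean, 49 and 47 with median-ratio scaling, 37 and 48 with the replicate block, 47 and 42 with block and scaling, and 10 to 17 higher and 7 to 23 lower when 1 library was left out.

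With a pseudocount of 1 the within-library log2 ratios differed between groups by -2.43 (IL11 to IL6), -3.42 (IL11 to IL6ST), 1.65 (IL1A to IL1B), -1.79 (IL1B to IL1RAP), -4.57 (CSF3 to CSF1), 3.72 (CSF2 to CSF3) and 1.18 (CSF1 to IL24), each nearer to 0 than with none, and with 0.1 the value for CSF3 to CSF1 was -5.08. A pseudocount pulls ratios of low values towards 0 by its construction. The cause of shifts in the settings other than the pseudocount was not tested. Replicate numbers did not pair the libraries beyond their number (correlation of same-numbered deviations 0.03).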
